A study of Mus musculus with 9 samples.

Results

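Apolipoproteins and the genes of cholesterol export were followed in mouse embryonic fibroblasts (MEFs) that carried a marsupial or a human *CRX* gene. The 10 genes were the apolipoproteins *Apoe*, *Apod* and *Clu*, the exporters *Abca1* and *Abcg1*, the liver X receptor (LXR) genes *Nr1h3* and *Nr1h2*, the lipase gene *Lpl*, the receptor gene *Lrp1* and the transfer protein gene *Pltp*. They were picked by name out of 22068 genes in the count table, and all 10 were found. *Apoe* and *Apod* head the list because of their own values in these libraries, so that their differences are given below as a description, and nothing is read from counts of called genes that include them. The other 8 stand beside them for what they are known to do, but they too were chosen with earlier results of these data known. A total of 8 of the 10 passed the filter on low values, and *Abcg1* and *Nr1h3* did not.

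The MEFs came from C57Bl/6 mice, were used at passage 2 and were electroporated with a plasmid that carries puromycin resistance. In metatherian CRX cells the plasmid held V5-tagged *CRX* of the opossum, in eutherian CRX cells V5-tagged *CRX* of human, and in control cells no homeobox gene. All 3 groups went through 5 days of selection in puromycin. The labels give a recovery of 48 h after selection, whereas the study's methods place 48 h before selection and an overnight culture after it. Each group has 3 libraries of polyadenylated RNA, numbered 1 to 3. Nothing in the labels says that they came from separate cultures or embryos, and p-values then measure only the spread between these samples. The cells of a library are those left after selection.

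The count table held 54145701 to 94699657 counts per library, and all libraries came from 1 sequencing run. The mouse *Crx* gene had 627, 995 and 313 counts in eutherian CRX libraries 1, 2 and 3. It had 0 counts in the 3 control libraries and 4, 0 and 0 counts in the metatherian CRX libraries. Counts of the introduced human gene and of the mouse gene cannot be told apart in this table, and no row for opossum *CRX* was analysed here. All 12 fibroblast markers passed the filter. Their summed level was 43149 to 48981 CPM (counts scaled by the library total and the TMM factor) in control, but only 18750 in eutherian CRX library 3 and 23043 in metatherian CRX library 3. The libraries numbered 3 also stood apart from their own groups in the counts of all genes, where chi-square over its degrees of freedom was 801 for eutherian CRX libraries 1 and 3 but 22.0 for libraries 1 and 2. Values without a library numbered 3 are given beside the results of the genes that moved most with it. In bulk RNA, fewer cells of a type and less RNA per cell cannot be told apart.

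Apolipoproteins are the protein part of lipoprotein particles. They take up cholesterol and phospholipid at the cell surface, and APOE in turn binds endocytic receptors, such as LRP1, that bring the particle into a cell. ABCA1 and ABCG1 are membrane pumps that hand cellular cholesterol to such particles. Both pumps, and *Apoe* itself, are textbook targets of the LXR factors, which are activated by oxidised cholesterol. *Apoe* is best known from liver, astrocytes and macrophages, and *Apod* from peripheral nerve and from fibroblasts that have stopped dividing. CRX is a homeodomain factor of photoreceptors that binds the bases TAATCC.

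The bases before the start of *Apoe* and *Apod* are shown because both genes were lower with either CRX, and because the letters that CRX binds are found before one of them. Whether CRX acts through these letters was not tested. Both sequences are from RefSeq on build GRCm38.p6. They run 5′ to 3′ on the minus strand over the 250 bases before the transcription start, and capitals mark TAATCC read on either strand.
Apoe, chr7:19699189-19699438, minus strand: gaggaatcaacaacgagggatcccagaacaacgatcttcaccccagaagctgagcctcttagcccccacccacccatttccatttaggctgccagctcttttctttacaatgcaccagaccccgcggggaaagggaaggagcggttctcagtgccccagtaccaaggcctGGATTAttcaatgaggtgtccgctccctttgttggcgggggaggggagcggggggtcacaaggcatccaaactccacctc
Apod, chr16:31314809-31315058, minus strand: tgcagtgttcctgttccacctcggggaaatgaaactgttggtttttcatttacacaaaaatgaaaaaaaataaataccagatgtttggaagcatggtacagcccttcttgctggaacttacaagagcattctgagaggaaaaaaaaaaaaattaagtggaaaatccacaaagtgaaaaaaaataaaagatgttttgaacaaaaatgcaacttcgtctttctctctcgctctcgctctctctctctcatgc

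The capitals in the *Apoe* sequence are the letters GGATTA, which are TAATCC on the other strand, at bases 19699263 to 19699268 of chromosome 7. They lie 80 to 75 bases before the RefSeq start at base 19699188. RefSeq gives *Apoe* 3 starts, and the windows of the other 2 did not hold them. The *Apod* window did not hold them either. RefSeq windows of 300 bases, 250 before and 50 after each start, were at hand for 7 of the 10 genes, in 10 windows, and *Clu*, *Abcg1* and *Lpl* were not matched. TAATCC was found in 3 of these 10 windows, namely 1 of *Apoe* and both of *Nr1h3*, which overlap and hold the same 6 bases (91195085 to 91195090 of chromosome 2), beside 2320 of 32851 windows of all genes, or 7.06%. The LXR element, AGGTCA repeated in the same direction with 4 bases of any kind between, was searched as exact letters on both strands. It was found in 0 of the 10 and in 5 of 32851 windows, or 0.0152%. A match is a description of the sequence and not a site of binding, and no match says only that these letters are not in the window.

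Levels per length give the order of the 10 genes in these fibroblasts. On the FPKM scale, computed from the counts, the library totals and the summed exon length, *Lrp1* was the most abundant by far, at 121 ± 32.8 in control (SD, n = 3 here and below). *Clu* at 24.7 ± 2.84, *Pltp* at 23.6 ± 3.62 and *Nr1h2* at 23.5 ± 3.89 came next in control, close to one another. *Apoe* stood at 16.1 ± 6.46, *Abca1* at 9.66 ± 0.453, *Lpl* at 7.54 ± 1.72 and *Apod* at 4.73 ± 0.553. Neighbours in this order from *Clu* down to *Lpl* differed by less than the sum of their SDs. *Nr1h3* at 0.842 ± 0.190 and *Abcg1* at 0.525 ± 0.420 were at the bottom of the order, and they overlapped. Of the LXR factors, the ubiquitous *Nr1h2* was thus the one with a substantial level here, and *Nr1h3*, which is known from liver, fat and macrophages, stayed under 1 FPKM in the mean of every group. With metatherian CRX the mean FPKM of *Apoe*, at 4.08 ± 1.58, was below that of *Abca1*, at 11.4 ± 4.80.

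**Figure D1:**
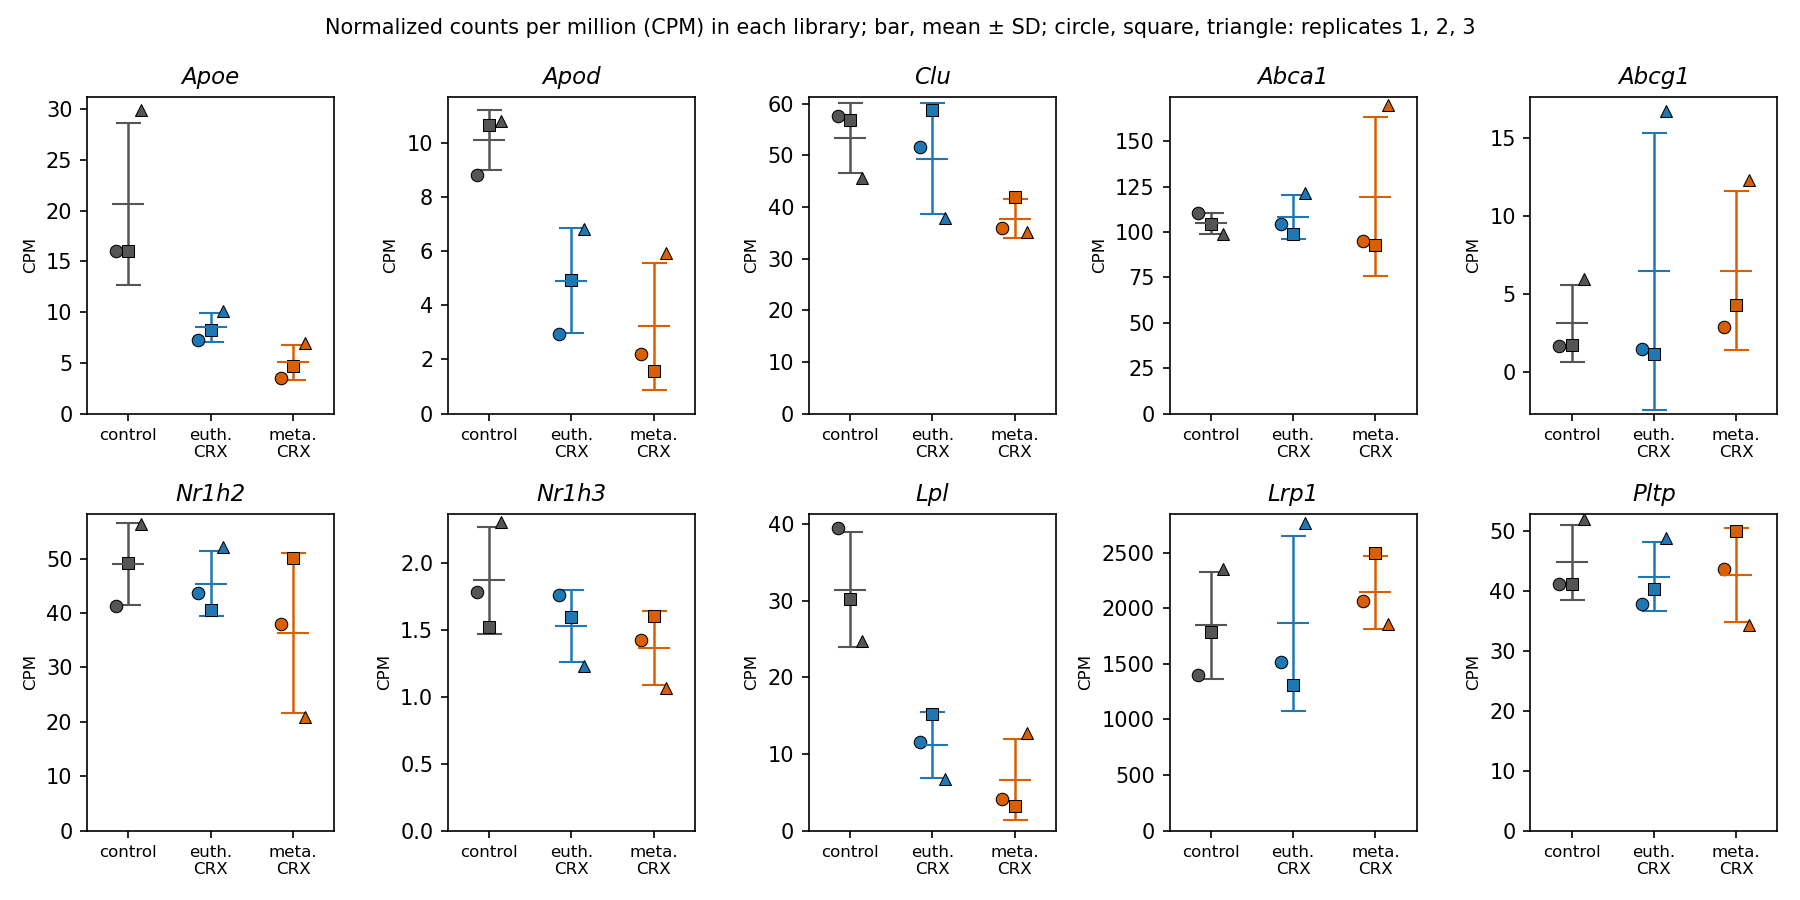
Normalized counts (CPM, vertical axis from 0 except for *Abcg1*, where the SD bar reaches below 0) of the 10 genes in each of the 9 libraries, with circles, squares and triangles for libraries 1, 2 and 3 and bars for the mean ± SD of 3 libraries. *Apoe* lies between 16.0 and 29.9 in control and between 3.55 and 6.93 with metatherian CRX, whereas *Pltp* and *Nr1h2* overlap between all groups.

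The CPM scale was used to compare a gene between libraries. *Apoe*, at bases 19696244 to 19699166 of chromosome 7 (GRCm38, minus strand, 4 exon intervals), had 16.1, 16.0 and 29.9 CPM in control libraries 1, 2 and 3. It had 7.21, 8.24 and 10.1 CPM with eutherian CRX and 3.55, 4.72 and 6.93 CPM with metatherian CRX. The groups did not overlap in any of the 3 comparisons, and library 3 was the highest in each group. The lowest library rested on 284 counts. The log2 fold change of *Apoe* in the fit of all genes was -2.02 (SE 0.17) for metatherian CRX against control and -1.23 (SE 0.16) for eutherian CRX against control. Against eutherian CRX, the metatherian CRX level was lower by a log2 fold change of -0.79 (SE 0.16). Within each replicate number, the value went the same way in 3 of 3 cases in every comparison. The 2 comparisons with control share the control libraries, so that they are not independent of each other. Without eutherian CRX library 3 the eutherian value was -1.08, and without metatherian CRX library 3 the metatherian value was -2.06. Without control library 3, in which *Apoe* was highest, the values were -1.91 for metatherian and -1.12 for eutherian CRX.

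*Apod* encodes a small lipocalin that rides on HDL particles and binds arachidonic acid and progesterone. It lies at bases 31296192 to 31314808 of chromosome 16 (GRCm38, minus strand). Control libraries held 8.82, 10.6 and 10.8 CPM of *Apod*, eutherian CRX libraries 2.95, 4.94 and 6.83 CPM, and metatherian CRX libraries 2.19, 1.56 and 5.92 CPM. Every library with either CRX was below every control library, while the eutherian and metatherian groups overlapped through metatherian CRX library 3. For *Apod* the log2 fold change was -1.84 (SE 0.37) for metatherian CRX against control, -1.14 (SE 0.36) for eutherian CRX against control and -0.70 (SE 0.36) between the CRX groups. Without metatherian CRX library 3 the first of these was -2.25 and the last -1.15, and without metatherian CRX library 2 they were -1.44 and -0.31. Over the 12 fits with libraries left out, the first ran from -2.35 to -1.44, the second from -1.45 to -0.92 and the last from -1.15 to -0.30.

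*Clu* encodes clusterin, also called APOJ, a secreted chaperone and apolipoprotein of HDL. It lies at bases 65968483 to 65981547 of chromosome 14 (GRCm38, plus strand). *Clu* had 57.7, 56.8 and 45.6 CPM in control, 51.6, 58.8 and 37.8 CPM with eutherian CRX and 35.9, 42.0 and 35.2 CPM with metatherian CRX. The 3 metatherian CRX libraries were all below the 3 control libraries, and the eutherian CRX libraries spread over both. Metatherian CRX against control gave a log2 fold change of -0.50 (SE 0.12), which did not pass (adjusted p = 0.11, edgeR, Benjamini-Hochberg over 10100 genes). The difference between the CRX groups was -0.37 (SE 0.12, adjusted p = 0.34, edgeR), and for eutherian CRX against control -0.13 (SE 0.12, adjusted p = 0.85, edgeR). Without eutherian CRX library 3 the adjusted p of the metatherian value was 0.040 at -0.49, and without metatherian CRX library 3 it was 0.043 at -0.60 (edgeR), in a range of 0.00024 to 1.00 over the 21 alternatives. Of the 3 apolipoproteins, *Clu* thus had the smallest difference at the highest level.

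**Figure D2:**
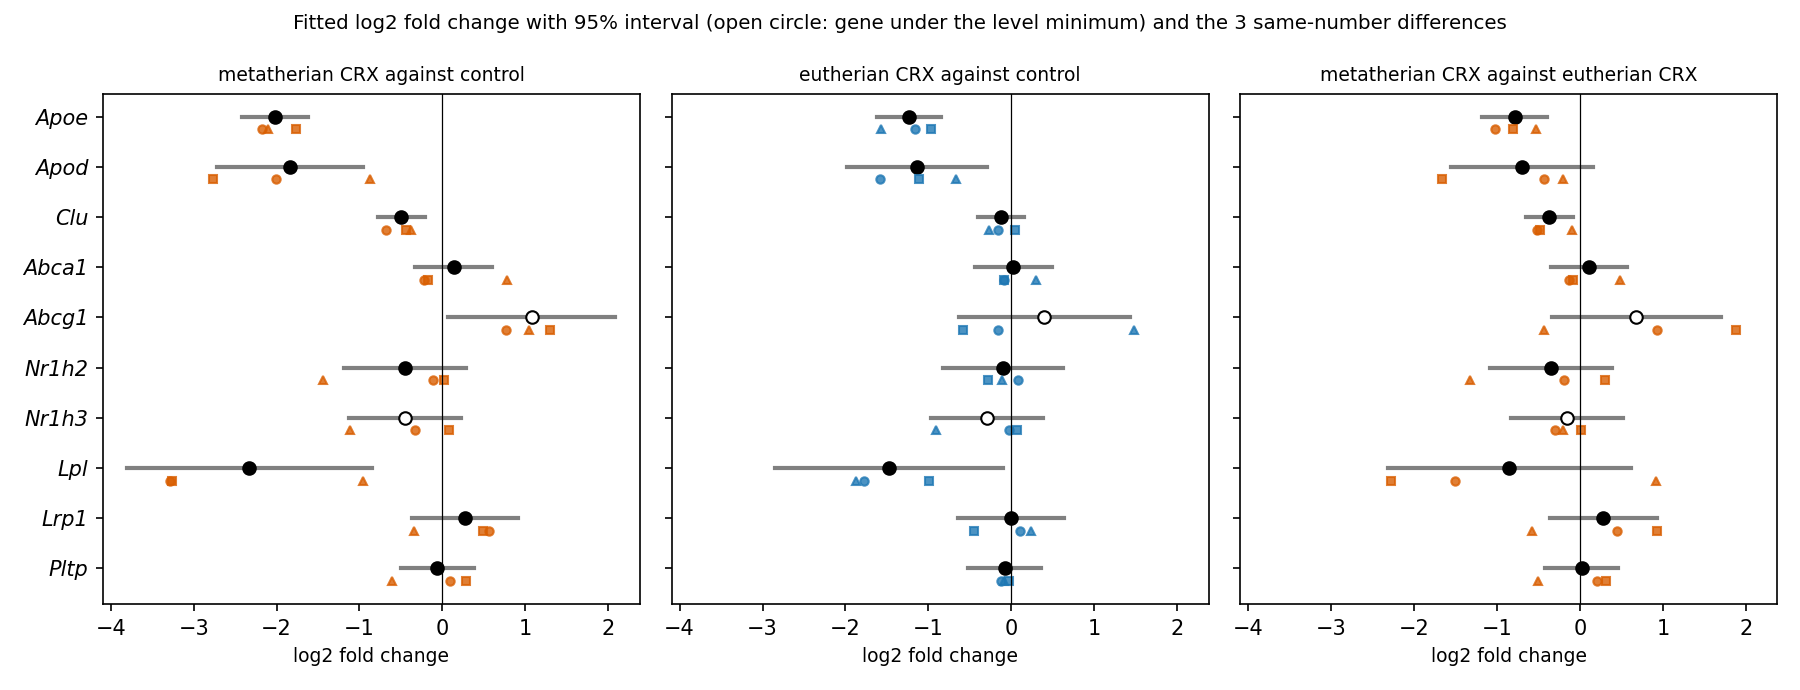
Log2 fold changes (horizontal axis) of the 10 genes in 3 comparisons, with large circles and lines for the fitted value and its 95% interval, open circles for *Abcg1* and *Nr1h3*, which were under the level minimum, and small symbols for the 3 differences between libraries of the same number. *Apoe* is on the left of 0 in all 3 panels in each pair, and the interval of *Lpl* for metatherian CRX against control runs from -3.80 to -0.85.

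*Lpl* encodes lipoprotein lipase, which cuts triglyceride in lipoproteins and moves surface lipid and apolipoproteins between particles. It lies at bases 68880555 to 68906932 of chromosome 8 (GRCm38, plus strand). *Lpl* had 39.5, 30.2 and 24.7 CPM in control, 11.6, 15.2 and 6.73 CPM with eutherian CRX and 4.06, 3.14 and 12.7 CPM with metatherian CRX. All 6 libraries with a CRX gene were below all 3 control libraries, and metatherian CRX library 3 lay within the range of the eutherian CRX libraries. For metatherian CRX against control *Lpl* had a log2 fold change of -2.33 (SE 0.62), the lowest of the 10 genes, and did not pass the threshold (adjusted p = 0.13, edgeR). For eutherian CRX against control it was -1.48 (SE 0.58, adjusted p = 0.55, edgeR). The difference between the CRX groups was -0.85 (SE 0.62, adjusted p = 0.65, edgeR), with a 95% interval of -2.32 to 0.61. Metatherian CRX library 3 carried much of the spread. Without it the value against control was -3.36 (adjusted p = 0.011, edgeR) and that between the CRX groups -1.82 (adjusted p = 0.038, edgeR), while the eutherian value against control was -1.53 (adjusted p = 0.040, edgeR). Without metatherian CRX library 2 the metatherian value against control was -1.80 and that between the CRX groups -0.27. Over the 12 fits with libraries left out, the values ran from -3.36 to -1.80 against control with metatherian CRX, from -2.03 to -1.05 with eutherian CRX and from -1.90 to -0.12 between the CRX groups, where the value nearest 0 was without the libraries numbered 2. Over the 21 alternatives the adjusted p of the metatherian value against control ran from 1.4e-05 to 1.00, that between the CRX groups from 0.00013 to 1.00 and that of the eutherian value from 0.00017 to 1.00.

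*Pltp* encodes the phospholipid transfer protein, which moves phospholipid between particles and enlarges HDL. It lies at bases 164839518 to 164857708 of chromosome 2 (GRCm38, minus strand) and shares 495 exonic bases with *Ctsa* on the other strand, so that a part of its counts may belong to *Ctsa* if strand was not used. *Pltp* had 41.2, 41.1 and 52.1 CPM in control, 37.9, 40.4 and 48.9 CPM with eutherian CRX and 43.8, 50.0 and 34.3 CPM with metatherian CRX. All groups overlapped. For *Pltp* the log2 fold change was -0.06 (SE 0.18, 95% interval -0.50 to 0.38, adjusted p = 0.89, edgeR) with metatherian CRX and -0.08 (SE 0.18, interval -0.52 to 0.36, adjusted p = 0.96, edgeR) with eutherian CRX. That between the CRX groups was 0.02 (SE 0.18, interval -0.42 to 0.46, adjusted p = 0.98, edgeR). It changed sign in 7 of 21 alternatives and ran from -0.15 to 0.26 over the fits with libraries left out, with 0.26 without metatherian CRX library 3. Limma voom called it at 0.22 (adjusted p = 0.019), in a range of 0.019 to 1.00 over the 21 alternatives. Against control, the metatherian value turned to 0.18 without metatherian CRX library 3.

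The exporters had levels of their own. *Abca1*, at bases 53030789 to 53159988 of chromosome 4 (GRCm38, minus strand), hands cholesterol and phospholipid to lipid-poor apolipoproteins. It had 111, 105 and 98.7 CPM in control, 104, 98.7 and 122 CPM with eutherian CRX and 95.1, 93.0 and 170 CPM with metatherian CRX. Leaving aside metatherian CRX library 3, which was the highest of the 9, the libraries lay close together. The log2 fold change was 0.14 (SE 0.20, 95% interval -0.33 to 0.60, adjusted p = 0.74, edgeR) for metatherian CRX against control. For eutherian CRX against control it was 0.03 (SE 0.19, interval -0.44 to 0.49, adjusted p = 0.99, edgeR), and between the CRX groups 0.11 (SE 0.20, interval -0.36 to 0.57, adjusted p = 0.88, edgeR). Without metatherian CRX library 3 the first was -0.13 and the last -0.17. *Apoe* and *Abca1*, both known LXR targets, thus had different values side by side in the same libraries.

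*Abcg1*, at bases 31057694 to 31117984 of chromosome 17 (GRCm38, plus strand), loads cholesterol onto mature HDL. It was under the level minimum, and its test comes from a fit of the 14599 genes that passed filterByExpr alone. *Abcg1* had 1.67, 1.74 and 5.97 CPM in control, 1.50, 1.17 and 16.7 CPM with eutherian CRX and 2.85, 4.28 and 12.3 CPM with metatherian CRX. In each group library 3 was the highest, at 417, 1259 and 808 counts, and it was more than the other two of its group together. For metatherian CRX against control the value was 1.08 (SE 0.43, adjusted p = 0.22, edgeR), with metatherian CRX higher within all 3 replicate numbers although the groups overlapped. For eutherian CRX against control it was 0.40 (SE 0.44, adjusted p = 0.85, edgeR), and between the CRX groups 0.68 (SE 0.44, adjusted p = 0.59, edgeR). Without eutherian CRX library 3 these values were 1.07 (adjusted p = 0.029, edgeR), -0.33 (adjusted p = 0.79, edgeR) and 1.40 (adjusted p = 0.041, edgeR). Over the 20 alternatives the adjusted p of the first ran from 0.0071 to 1.00, of the second from 0.47 to 1.00 and of the third from 0.0079 to 1.00.

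The LXR factors did not pass in any comparison. *Nr1h2*, at bases 44549616 to 44553969 of chromosome 7 (GRCm38, minus strand), encodes LXR beta, the form that most cells express. It had 41.3, 49.2 and 56.4 CPM in control, 43.6, 40.5 and 52.1 CPM with eutherian CRX and 38.1, 50.0 and 20.8 CPM with metatherian CRX. The groups overlapped, and metatherian CRX library 3 was the lowest of the 9. For *Nr1h2* the log2 fold change was -0.45 (SE 0.31, adjusted p = 0.46, edgeR) with metatherian CRX, -0.10 (SE 0.30, adjusted p = 0.97, edgeR) with eutherian CRX and -0.35 (SE 0.31, adjusted p = 0.71, edgeR) between the CRX groups. Without metatherian CRX library 3 the first was -0.046 and the last turned to 0.054, and over the 12 fits with libraries left out the first ran from -0.78 to -0.044.

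*Nr1h3*, at bases 91184061 to 91202834 of chromosome 2 (GRCm38, minus strand), encodes LXR alpha and shares 23 exonic bases with *Acp2* on the other strand. It had 1.78, 1.52 and 2.31 CPM in control, 1.76, 1.59 and 1.23 CPM with eutherian CRX and 1.42, 1.60 and 1.06 CPM with metatherian CRX, which are 70 to 161 counts per library. Its groups overlapped at this low level. In the fit of 14599 genes the log2 fold change was -0.45 (SE 0.29, adjusted p = 0.42, edgeR) with metatherian CRX, -0.29 (SE 0.29, adjusted p = 0.83, edgeR) with eutherian CRX and -0.16 (SE 0.29, adjusted p = 0.88, edgeR) between the CRX groups. The first was -0.27 without metatherian CRX library 3, and it ran from -0.71 to -0.11 over the 12 fits with libraries left out.

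*Lrp1*, at bases 127538157 to 127621148 of chromosome 10 (GRCm38, minus strand, 89 exon intervals), encodes the large endocytic receptor that takes up APOE particles and many proteases. It had 1401, 1782 and 2353 CPM in control, 1513, 1309 and 2766 CPM with eutherian CRX and 2067, 2499 and 1859 CPM with metatherian CRX. Library 3 was the highest in control and with eutherian CRX and the lowest with metatherian CRX, and the groups overlapped. For *Lrp1* the log2 fold change was 0.27 (SE 0.27, adjusted p = 0.61, edgeR) with metatherian CRX, -0.01 (SE 0.27, adjusted p = 1.00, edgeR) with eutherian CRX and 0.28 (SE 0.27, adjusted p = 0.75, edgeR) between the CRX groups. The 95% interval of the first was -0.37 to 0.92. Without metatherian CRX library 3 the first was 0.59 and the last 0.62, whereas without metatherian CRX library 2 the first was 0.041, the low end of its 12 fits with libraries left out. Both were called without the libraries numbered 3, at 0.52 and 0.69 (adjusted p = 0.045 and 0.018, edgeR), and by limma voom with quality weights. Over the 21 alternatives the adjusted p of the first ran from 0.0027 to 1.00 and that of the last from 0.0022 to 1.00.

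Counted over the 8 genes that passed the filter, 1 was called at an adjusted p under 0.05 in edgeR's quasi-likelihood test of metatherian CRX against control, and it was *Apoe*, which was chosen for this. Among all 10100 genes tested, 0.0297% were called in that comparison. For eutherian CRX against control *Apoe* was again the 1 gene called, beside 0.604% of all genes. The call of *Apoe* was lost in 11 of 21 alternatives for metatherian CRX and in 13 of 21 for eutherian CRX, among them the fit without the replicate block and those without any 1 control library. Between the CRX groups 0 of the 8 were called, beside 0% of all genes, with 2 of the 8 at an unadjusted p under 0.05 in edgeR, 1 called by DESeq2 (*Apoe*), beside 317 of 10100 genes, and 6 by limma voom with quality weights, beside 4883 of 10100. In the edgeR fit of all 9 libraries with the replicate block, no member beside *Apoe* was called in any comparison. At an unadjusted p under 0.05, 4 of the 8 (*Apoe*, *Apod*, *Clu* and *Lpl*) were lower with metatherian CRX than in control, beside 10.5% of all genes, and 0 were higher, beside 9.04%. With eutherian CRX 3 (*Apoe*, *Apod* and *Lpl*) were lower, beside 6.34%, and 0 higher, beside 2.23%. Between the CRX groups *Apoe* and *Clu* were lower with metatherian CRX, beside 4.13%, and 0 of the 8 were higher, beside 7.41%. Among the 6 genes other than *Apoe* and *Apod*, these were *Clu* and *Lpl* for metatherian CRX against control, *Lpl* for eutherian CRX against control and *Clu* between the CRX groups. Genes lower in every library than in any library of the other group were 4 of 8 for metatherian CRX against control, beside 12.3% of all genes, 3 of 8 for eutherian CRX against control, beside 7.8%, and 1 of 8 (*Apoe*) between the CRX groups, beside 5.3%. Genes higher in every library were 0 of 8 in each comparison, beside 11%, 6.21% and 6.23% of all genes in the same order. *Apoe* and *Apod* are among the members counted here and entered by their own values. The median log2 fold change of the 8 was -0.47 with metatherian CRX, -0.11 with eutherian CRX and -0.36 between the CRX groups, where that of all genes was between -0.0080 and 0.0013. This median includes *Apoe* and *Apod* too, so that nothing is read from its distance to that of all genes.

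Around *Apoe* lies a cluster of apolipoprotein genes, and the genes within 100 kb were read off by position. Of the other apolipoprotein genes there, *Apoc1* had 3 counts in all 9 libraries together and *Apoc2* and *Apoc4* had 0, each of which allows up to 3 counts by counting error. Of the other neighbours, *Tomm40*, *Pvrl2*, *Clptm1* and *Relb* passed the filter and *Bcam* and *Cblc* did not. *Pvrl2*, now called *Nectin2*, a cell adhesion gene at bases 19716644 to 19749573 of chromosome 7 (GRCm38, minus strand), had 27.7, 33.9 and 41.1 CPM in control, 19.9, 20.3 and 19.6 CPM with eutherian CRX and 14.4, 14.3 and 16.4 CPM with metatherian CRX. Its groups did not overlap in any comparison. The log2 fold change of *Pvrl2* was -1.18 (SE 0.14, adjusted p = 0.069, edgeR) with metatherian CRX, -0.76 (SE 0.13, adjusted p = 0.082, edgeR) with eutherian CRX and -0.42 (SE 0.13, adjusted p = 0.34, edgeR) between the CRX groups, so that it did not pass the adjusted threshold. *Tomm40*, a mitochondrial import gene between *Pvrl2* and *Apoe*, had -0.18 (SE 0.24, adjusted p = 0.71, edgeR) with metatherian CRX and 0.10 (SE 0.24, adjusted p = 0.96, edgeR) with eutherian CRX. The values of *Clptm1* were 0.20 and 0.14 and those of *Relb* 0.08 and 0.20, with adjusted p of 0.50, 0.88, 0.91 and 0.92 (edgeR). Of the 4 tested neighbours *Pvrl2* was thus the one below control in every library, and *Tomm40*, which lies nearer to *Apoe*, was not.

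**Figure D3:**
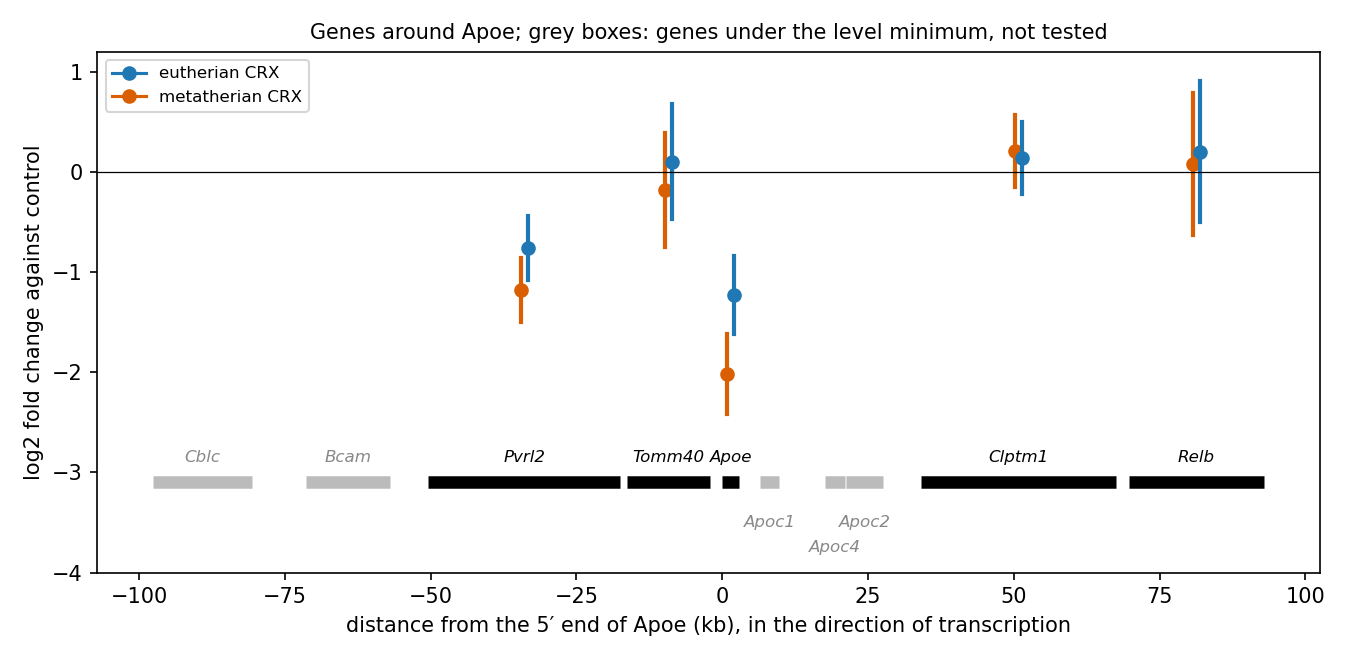
Log2 fold change against control (vertical axis, with 95% intervals as lines) of *Apoe* and its tested neighbours, set at the middle of each gene along the distance from the 5′ end of *Apoe* in kilobases, for metatherian and eutherian CRX. Black boxes are tested genes and grey boxes genes under the level minimum. *Apoe* at -2.02 and -1.23 and *Pvrl2* at -1.18 and -0.76 are below 0, and *Tomm40* between them is near 0.

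Across all kept genes, the profiles most like those of *Apoe* and *Apod* over the 9 libraries were found by the root mean square difference of log2 CPM after each gene was centred. The 5 closest to *Apoe* were *En1* at 0.323, *Adh1* at 0.339, *Mdk* at 0.348, *Zic1* at 0.350 and *Serpinf1* at 0.367, where the median of all genes was 0.927. The 5 closest to *Apod* were *Dpt* at 0.167, *Zic1* at 0.229, *Adh1* at 0.327, *En1* at 0.339 and *Mdk* at 0.380, where the median was 0.975. The lists share 4 genes, *En1*, *Adh1*, *Mdk* and *Zic1*. *En1* and *Zic1* encode developmental transcription factors, *Adh1* an alcohol and retinol dehydrogenase, *Mdk* the growth factor midkine, *Serpinf1* the secreted factor PEDF and *Dpt* the matrix protein dermatopontin. *Dpt* had 19.6, 24.2 and 25.0 CPM in control, 7.16, 9.71 and 12.7 CPM with eutherian CRX and 5.30, 3.74 and 16.8 CPM with metatherian CRX, with library 3 high in both CRX groups as in *Apod*. *Serpinf1* was the most abundant of them, at 354, 404 and 420 CPM in control, 174, 226 and 175 CPM with eutherian CRX and 127, 123 and 180 CPM with metatherian CRX. These genes were picked for the likeness over libraries that share depth and group, so that it is a description without a test.

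**Figure D4:**
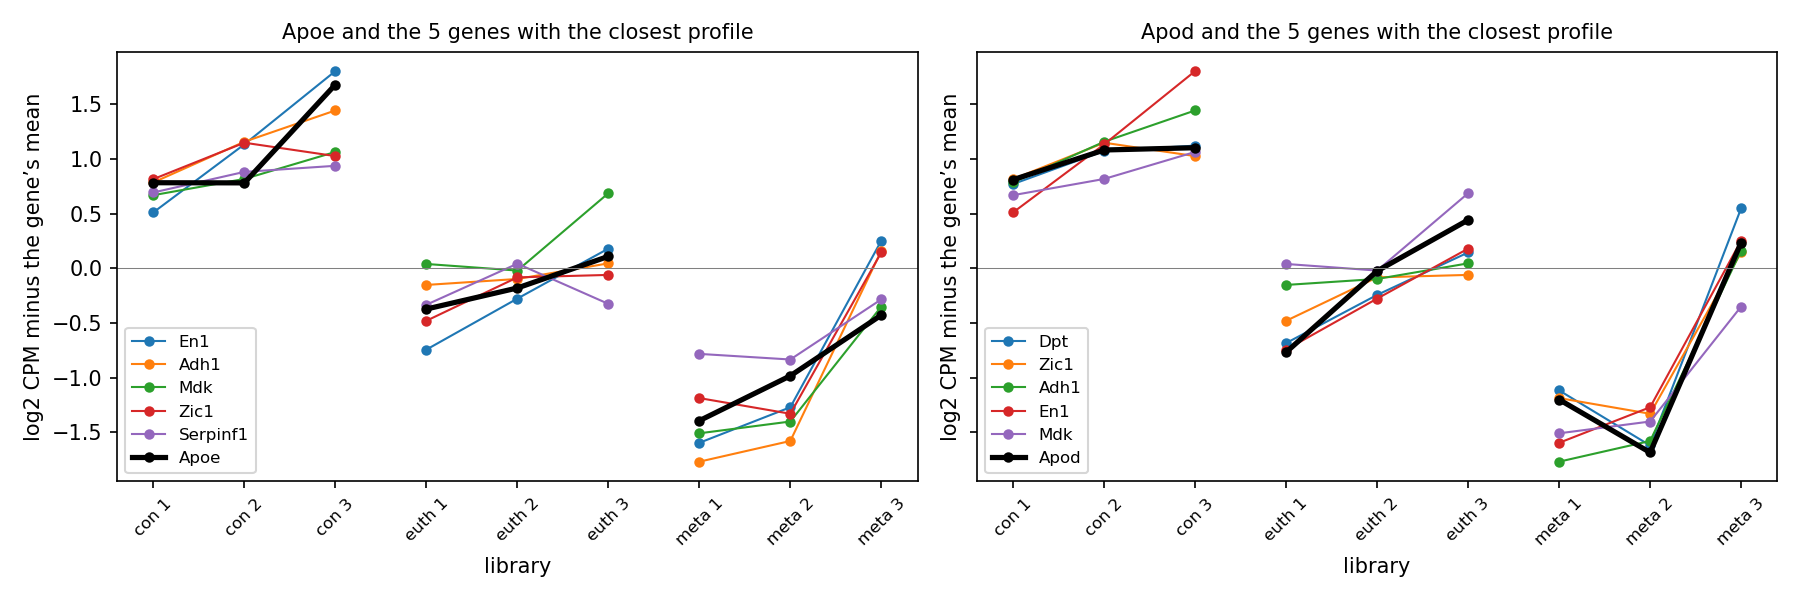
Log2 CPM minus the mean of each gene (vertical axis) in the 9 libraries for *Apoe* (left) and *Apod* (right), both as thick black lines, and the 5 genes with the closest profile to each, with lines joined within a group only. The control libraries are above 0 and metatherian CRX libraries 1 and 2 below 0 for every gene drawn.

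The other apolipoproteins and the wider pathway were read from lists of genes. EdgeR called 0 genes at the adjusted threshold in any of these lists and comparisons. Over all 10100 genes, DESeq2 called 1004 with metatherian CRX, 333 with eutherian CRX and 317 between the CRX groups, and limma voom 4665, 1697 and 4883. At an unadjusted p under 0.05 (edgeR), 10.5% of all genes were lower and 9.04% higher with metatherian CRX. With eutherian CRX it was 6.34% and 2.23%, and between the CRX groups 4.13% and 7.41%. Of 16 other apolipoproteins, 5 had no count in any library and 4 passed the filter, *Apool*, *Apoh*, *Apol6* and *Apol9a*. At an unadjusted p under 0.05, 0 of the 4 differed from control with either CRX, DESeq2 called 0 and limma voom 3 and 2. *Apool*, a mitochondrial membrane protein gene in spite of its name, was the highest per length, with a log2 fold change of -0.40 (SE 0.20) with metatherian CRX and -0.10 (SE 0.20) with eutherian CRX. *Apoh* (beta-2-glycoprotein) had 0.40 (SE 0.31) and 0.41 (SE 0.30), and *Apol9a* 0.87 (SE 0.69) and -0.74 (SE 0.67). *Apol6*, described after its values were seen, had 8.42, 7.20 and 8.61 CPM in control, 4.86, 5.64 and 0.344 CPM with eutherian CRX and 5.85, 3.14 and 1.60 CPM with metatherian CRX. All 6 libraries with a CRX gene were below all control libraries, at -1.53 (SE 0.74, adjusted p = 0.31, edgeR) with metatherian CRX and -1.67 (SE 0.78, adjusted p = 0.63, edgeR) with eutherian CRX, and limma voom called both. *Apol6* passed the level minimum only through control, at a mean FPKM of 2.07, beside 0.959 with eutherian and 0.911 with metatherian CRX. For this gene the filter thus favoured a lower value. The median of the 4 was -0.0032 with metatherian CRX and -0.42 with eutherian CRX. Most of the family was thus silent or scarce in these fibroblasts. *Apob*, under the level minimum and named after its values were seen, went the other way from *Apol6* with metatherian CRX. It had 0.499, 0.558 and 2.64 CPM in control, 0.274, 0.369 and 4.48 CPM with eutherian CRX and 5.74, 6.02 and 6.28 CPM with metatherian CRX. *Apob* was not tested in this fit.

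Of 12 further LXR targets, 8 passed the filter, and their median was 0.05 with metatherian CRX, -0.16 with eutherian CRX and 0.23 between the CRX groups. An unadjusted p under 0.05 was found for 2 higher genes and 1 lower gene with metatherian CRX and for 0 with eutherian CRX. *Scd2* and *Scd1*, which encode fatty acid desaturases, had log2 fold changes of 0.11 (SE 0.20) and 0.36 (SE 0.13) with metatherian CRX and -0.31 (SE 0.20) and 0.08 (SE 0.13) with eutherian CRX. *Arl4c*, a small GTPase gene, had 0.71 (SE 0.28) and 0.28 (SE 0.28). The lower one was *Mylip*, which encodes a ubiquitin ligase for lipoprotein receptors and was named after its values were seen, with -0.67 (SE 0.23, adjusted p = 0.19, edgeR) with metatherian CRX and -0.28 (SE 0.23) with eutherian CRX. It had 45.5, 41.3 and 52.4 CPM in control and 25.7, 26.2 and 35.7 CPM with metatherian CRX, which did not overlap. The LXR targets thus had values on both sides of 0, and DESeq2 called 0 of them in each comparison. Limma voom called 5, 1 and 6 of them, beside 4665, 1697 and 4883 of all 10100 genes.

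Of 12 LXR partners and coregulators, 9 passed, with 0 at an unadjusted p under 0.05 (edgeR) against control in either comparison and 0 called by DESeq2. Limma voom called 4 and 1, beside 4665 and 1697 of all 10100 genes. *Rxra*, the partner with which LXR binds DNA, had log2 fold changes of 0.04 (SE 0.12) with metatherian and 0.21 (SE 0.12) with eutherian CRX. The corepressor gene *Ncor1* had 0.04 (SE 0.12) with metatherian CRX and -0.04 (SE 0.12) with eutherian CRX. The median of the 9 was -0.11 and -0.04.

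Of 16 further transporters of the ABC A and G classes, 5 passed, and all 5 values were above 0 with metatherian CRX, with a median of 0.19, where 4 of 5 were below 0 with eutherian CRX, with a median of -0.02. *Abcg2*, which encodes a broad drug and urate pump, had 138, 137 and 113 CPM in control, 158, 148 and 86.7 CPM with eutherian CRX and 210, 172 and 146 CPM with metatherian CRX. Its metatherian CRX libraries were all above the control libraries. The log2 fold change was 0.43 (SE 0.14, adjusted p = 0.17, edgeR) against control and 0.45 (SE 0.14, adjusted p = 0.32, edgeR) against eutherian CRX. *Abca3* and *Abca5* had 0.19 (SE 0.18) and 0.03 (SE 0.19) with metatherian CRX. DESeq2 called 0 of the 5 in each comparison. Limma voom called 5 with metatherian CRX, 0 with eutherian CRX and 4 between the CRX groups, beside 4665, 1697 and 4883 of all 10100 genes.

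Of 19 lipoprotein receptors beside *Lrp1*, 13 passed, with a median of -0.16 with metatherian CRX and -0.21 with eutherian CRX. At an unadjusted p under 0.05, 0 of the 13 differed from control with metatherian CRX. Among those lower with eutherian CRX at that threshold were *Vldlr*, *Sort1* and *Olr1*, which were named after their values were seen. *Sort1*, a sorting receptor, had 22.6, 23.3 and 34.8 CPM in control, 19.3, 17.1 and 17.9 CPM with eutherian CRX and 28.5, 26.1 and 31.9 CPM with metatherian CRX. Its eutherian CRX libraries were all below the libraries of both other groups. *Sort1* had -0.55 (SE 0.15, adjusted p = 0.32, edgeR) with eutherian CRX against control and 0.66 (SE 0.15, adjusted p = 0.27, edgeR) for metatherian against eutherian CRX. The 3 most abundant receptors per length, *Lrpap1*, *Scarb2* and *Lrp10*, had log2 fold changes from -0.33 to 0.10 against control with metatherian CRX and from -0.16 to 0.01 with eutherian CRX. *Lrpap1* encodes the chaperone of LRP1, *Scarb2* a lysosomal scavenger receptor and *Lrp10* a trafficking receptor. DESeq2 called 1 receptor (*Olr1*) with metatherian CRX, 0 with eutherian CRX and 1 (*Sort1*) between the CRX groups, beside 1004, 333 and 317 of all 10100 genes. Limma voom called 9, 4 and 7, with *Sort1* among the 7, beside 4665, 1697 and 4883 of all genes.

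Of 13 lipase and lipoprotein remodelling genes beside *Lpl* and *Pltp*, 12 were in the table and 7 passed, with a median of -0.18 with metatherian CRX and -0.16 with eutherian CRX. The 3 highest per length were *Hspg2* and *Sdc1*, which encode heparan sulfate proteoglycans that hold lipase and lipoproteins at the cell surface, and *Sel1l*, which helps lipase leave the endoplasmic reticulum. Their log2 fold changes lay between -0.40 and -0.01 with metatherian CRX and between -0.45 and -0.06 with eutherian CRX. *Angptl4*, which encodes an inhibitor of lipoprotein lipase and was named after its values were seen, had 15.8, 18.9 and 26.0 CPM in control, 8.93, 9.78 and 22.4 CPM with eutherian CRX and 9.44, 10.3 and 23.7 CPM with metatherian CRX. Each CRX library was below the control library that carries its number, although the groups overlapped. Its log2 fold change was -0.60 (SE 0.17, adjusted p = 0.15, edgeR) with metatherian CRX and -0.67 (SE 0.17, adjusted p = 0.27, edgeR) with eutherian CRX. DESeq2 called *Angptl4* alone in both comparisons with control, beside 1004 and 333 of all 10100 genes. Limma voom called 5 and 2 of the 7, beside 4665 and 1697 of all genes. *Lpl* and the gene of its inhibitor were thus both below the control that carries the same number in each case.

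Inside the cell, 11 of 13 genes of cholesterol handling passed, with a median of -0.0039 with metatherian CRX and -0.05 with eutherian CRX. *Cav1*, *Npc2* and *Npc1*, for caveolae and for cholesterol leaving the lysosome, were the highest per length. *Npc1* had a log2 fold change of 0.25 (SE 0.09, adjusted p = 0.19, edgeR) with metatherian CRX, *Npc2* 0.24 (SE 0.12, adjusted p = 0.34, edgeR) and *Cav1* -0.67 (SE 0.41, adjusted p = 0.40, edgeR). *Ch25h*, which makes 25-hydroxycholesterol and was named after its values were seen, had 4.39, 6.90 and 7.78 CPM in control, 2.98, 2.42 and 3.27 CPM with eutherian CRX and 3.07, 2.95 and 2.25 CPM with metatherian CRX. All 6 libraries with a CRX gene were below all control libraries, at -1.18 (SE 0.28, adjusted p = 0.11, edgeR) and -1.13 (SE 0.27, adjusted p = 0.22, edgeR). *Nceh1*, a cholesterol ester hydrolase gene also named after its values were seen, had 0.82 (SE 0.19, adjusted p = 0.11, edgeR) with metatherian CRX, at 14.6, 14.9 and 25.9 CPM in control and 23.4, 26.8 and 49.5 CPM with metatherian CRX. Its groups overlapped through control library 3. DESeq2 called *Ch25h* and *Nceh1* with metatherian CRX and *Ch25h* with eutherian CRX, beside 1004 and 333 of all 10100 genes. Limma voom called 8 and 6 of the 11, beside 4665 and 1697 of all genes.

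Macrophages express *Apoe* and *Lpl* strongly, and marker genes of macrophages were therefore set beside them. The summed level of 16 macrophage markers was 59.9, 30.1 and 17.5 CPM in control libraries 1, 2 and 3. It was 33.8, 28.7 and 10.5 CPM with eutherian CRX and 8.60, 11.2 and 16.1 CPM with metatherian CRX. All 3 metatherian CRX libraries were thus below all control libraries, while the eutherian CRX libraries overlapped with control. None of the 16 was at 0 in all libraries, and 3 passed the filter, *Lyz2*, *Cd68* and *Tyrobp*, all with values below 0 in both comparisons with control. Their median log2 fold change was -1.93 with metatherian CRX and -0.54 with eutherian CRX. For metatherian CRX against control *Tyrobp* had -2.72 (SE 0.95, adjusted p = 0.20, edgeR) and *Cd68* -0.84 (SE 0.32, adjusted p = 0.22, edgeR), both at an unadjusted p under 0.05. *Tyrobp* passed the level minimum only through control, at a mean FPKM of 2.73, beside 1.49 with eutherian and 0.329 with metatherian CRX. For this gene the filter thus favoured a lower value. Limma voom called all 3, beside 4665 of all 10100 genes, while DESeq2 called 0. With eutherian CRX both tools called 0. *Lyz2* (lysozyme) had 23.5, 8.63 and 4.21 CPM in control, 12.1, 10.1 and 1.77 CPM with eutherian CRX and 0.512, 1.68 and 4.97 CPM with metatherian CRX. In metatherian CRX library 1, 4 of the 16 markers were at 0, *C1qa*, *C1qc*, *Emr1* (F4/80) and *Aif1*, and *Aif1* was at 0 in other libraries too, control included. In the same library *Csf1r* had 182 counts, *Cd14* 125, *Mrc1* 68 and *Fcgr3* 66. The mean level was lower with metatherian CRX than in control for every marker except *Aif1*, which had 0 to 2 counts per library. It was 1.61 CPM in control and 0.184 CPM with metatherian CRX for *Tyrobp*, 1.36 and 0.148 CPM for *Emr1* and 0.762 and 0.0732 CPM for *Fcer1g*, but 1.78 and 1.73 CPM for *Cd14* and 0.976 and 0.953 CPM for *Mrc1*. Markers other than *Lyz2*, *Cd68* and *Tyrobp* were named after their values were seen. *Apoe* was highest in control library 3, where the summed macrophage markers were lowest among the control libraries, and *Lpl* was highest in control library 1, where they were highest. In control, eutherian and metatherian CRX libraries 3, where the marker sum was 17.5, 10.5 and 16.1 CPM, *Apoe* had 29.9, 10.1 and 6.93 CPM and *Lpl* had 24.7, 6.73 and 12.7 CPM. The part of macrophage RNA in these results was not tested.

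**Figure D5:**
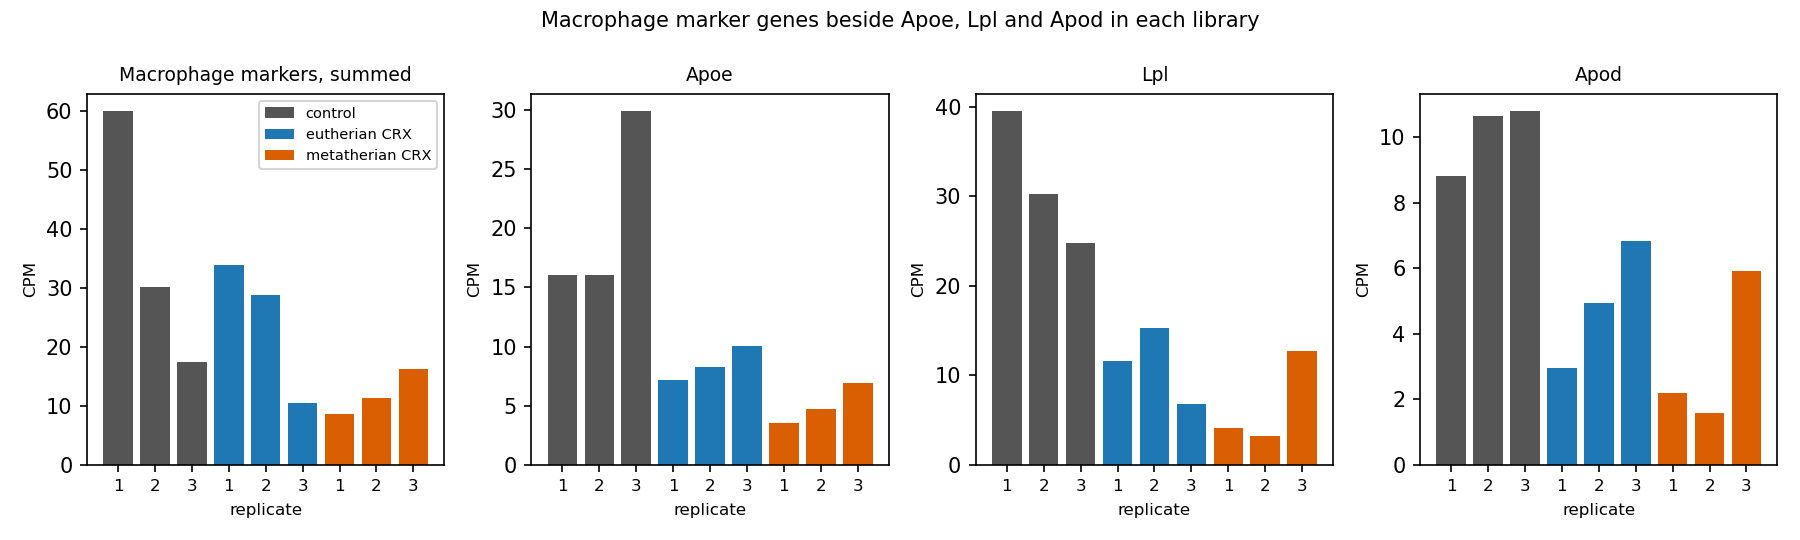
CPM (vertical axes from 0) of 16 macrophage markers summed, *Apoe*, *Lpl* and *Apod* in the 9 libraries, 1 bar per library. The marker sum is 59.9 in control library 1 and 17.5 in control library 3, whereas *Apoe* is 16.1 and 29.9 there.

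Markers of other cells were set beside the members as well. Of 8 adipocyte markers, 2 passed, *Fabp4* and *Pparg*, and their values were from -0.11 to -0.06 with metatherian CRX and from -0.04 to 0.42 with eutherian CRX. The summed adipocyte markers were lowest in control library 3, at 23.9 CPM, and 30.9 to 78.6 CPM in the other libraries. Of 8 Schwann cell and neural crest markers only *S100b* passed, at 1.71, 1.47 and 2.94 CPM in control, 2.13, 1.90 and 1.73 CPM with eutherian CRX and 5.11, 4.51 and 2.69 CPM with metatherian CRX. *S100b* passed the level minimum only through metatherian CRX, at a mean FPKM of 2.44, and was under it in control and with eutherian CRX. For this gene the filter thus favoured a higher value, so that it cannot stand for the cell type by itself. *Apod*, which Schwann cells express, was lowest in the metatherian CRX libraries 1 and 2, where *S100b* was highest. The 7 endothelial markers (1 passed, *Kdr*) summed to 11.6 to 19.3 CPM. The 7 epithelial markers (1 passed, *Krt18*) summed to 0.561 to 13.0 CPM, with the highest sums in eutherian and metatherian CRX libraries 3. Among fibroblast markers, the median log2 fold change over 12 genes was -1.02 with metatherian CRX and -0.68 with eutherian CRX. *Col1a1* had -1.70 (SE 0.48, adjusted p = 0.14, edgeR) and -1.43 (SE 0.48, adjusted p = 0.46, edgeR), while *Vim* had -0.08 (SE 0.14) and -0.06 (SE 0.14) and *Fn1* 0.36 (SE 0.23) and -0.33 (SE 0.23). DESeq2 called 5 of the 12 with metatherian CRX and 4 with eutherian CRX, beside 1004 and 333 of all 10100 genes. Limma voom called 10 and 7, beside 4665 and 1697 of all genes. EdgeR called 0. At an unadjusted p under 0.05 (edgeR), 7 were lower and 1 higher with metatherian CRX, beside 10.5% and 9.04% of all genes. With eutherian CRX 5 were lower and 0 higher, beside 6.34% and 2.23%. The part of these differences in the levels of *Apoe*, *Apod* and *Lpl* was not tested.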

How the data were processed

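RNA-seq counts of 9 libraries, 3 each of control, eutherian CRX and metatherian CRX, were analysed. The authors aligned paired reads with STAR to mm10 (GRCm38) and deposited raw counts per gene made with featureCounts, without normalization; which annotation release and strand option were used and the handling of multiply aligned reads are not given in the sources used here. TMM factors (0.961 to 1.10), CPM and FPKM were computed from these counts in R 4.3.3 (edgeR 4.0.16, limma 3.58.1). Of 22068 genes, 14599 passed filterByExpr and 10100 of these reached a group mean over 2 FPKM. All libraries were fitted together with edgeR's quasi-likelihood test and the replicate number as a block, since the study states paired preparation, with Benjamini-Hochberg adjustment over all genes kept and calls at an adjusted p under 0.05. Deviations of same-numbered libraries correlated above 0.1 in 8 of 9 pairs (range 0.0034 to 0.75), and by this the pairing stays unproven. SE is |log2 fold change| over the root of F, and a prior count of 2 was added for log2 CPM.

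The members and lists were chosen with earlier results of these data known. Named are the 10 members, the 3 genes of each other list with the highest mean FPKM, genes called in a list, kept genes within 100 kb of *Apoe* and the 5 genes closest in profile to *Apoe* and to *Apod*; others are marked as named after their values were seen, and *Crx* checks the labels. Some genes of the lists are not reported here by name. The 21 alternatives were no block, 2 other scalings, 2 other filters, only the 6 libraries compared, DESeq2 1.42.0 on counts and on rounded FPKM, limma voom with quality weights, each library left out and each number left out. Depth was 54145701 to 94699657 counts per library, and floors of 3 counts cover counting error only. The edgeR test was also run on simulated counts without any difference between replicate numbers. That run therefore does not speak for libraries such as those numbered 3. No comparison columns of the authors were used.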

Additional observations from a re-analysis of the deposited data

How the results depend on the processing

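With no replicate block, 0 of the 8 members were called in each of the 3 comparisons, in place of 1, 1 and 0 with it. For metatherian CRX against control, DESeq2 on counts called 4 members, DESeq2 on rounded FPKM 0 and limma voom with quality weights 5. Leaving out libraries gave from 0 to 5 calls, with 4 without eutherian CRX library 3 or metatherian CRX library 3 (*Apoe*, *Apod*, *Clu* and *Lpl* in both), 5 without all libraries numbered 3, and 0 without any 1 of the other 7 libraries. For eutherian CRX against control, the fit of only the 6 libraries compared and DESeq2 on rounded FPKM called 0 and limma voom 3. Leaving out libraries gave from 0 to 2, with 2 (*Apoe* and *Lpl*) without metatherian CRX library 3 or without the libraries numbered 3, and 0 without any 1 of the other 8. Between the CRX groups DESeq2 on counts called 1, limma voom 6, and leaving out libraries gave from 0 to 5, with 1 without eutherian CRX library 3 (*Apoe*), 1 without metatherian CRX library 3 (*Lpl*) and 5 without the libraries numbered 3. The number of calls over all genes moved too. Where edgeR called 3, 61 and 0 of 10100 genes in the 3 comparisons, limma voom called 4665, 1697 and 4883 and DESeq2 on counts 1004, 333 and 317. Without eutherian CRX library 3 it was 893, 0 and 351 of 10108 genes, without metatherian CRX library 3 it was 497, 117 and 149 of 10093, and without the libraries numbered 3 it was 2221, 295 and 2258 of 10025. *Apoe* stayed below 0 in every alternative, from -2.14 to -1.90, from -1.36 to -1.06 and from -0.93 to -0.68 in the 3 comparisons. *Apod*, *Clu* and *Lpl* also kept their direction in all 21 alternatives. The cause of these differences was not tested.

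Of 624 log2 fold changes under an alternative, 514 kept their direction and side of the threshold, 24 kept the direction but lost the call, 41 gained one and 45 changed sign, and those that changed sign were of *Abca1*, *Abcg1*, *Nr1h2*, *Nr1h3*, *Lrp1* and *Pltp*. Under limma voom the values that changed sign were -0.17 for *Abca1* and 0.17 for *Pltp* with metatherian CRX, -0.056 for *Abca1*, 0.056 for *Nr1h2*, 0.035 for *Nr1h3* and 0.027 for *Lrp1* with eutherian CRX, and -0.11 for *Abca1* between the CRX groups. *Lrp1* with eutherian CRX was 0.0135 without the block, 0.0016 with upper-quartile factors, 0.0099 with filterByExpr alone and 0.0157 without a filter. Between the CRX groups *Nr1h3* was 0.054 with DESeq2 on rounded FPKM and *Pltp* -0.017 with upper-quartile factors. With libraries left out, the values with metatherian CRX ran from -0.20 to 0.31 for *Abca1* and from -0.24 to 0.18 for *Pltp*. With eutherian CRX they ran from -0.18 to 0.15 for *Abca1*, from -0.33 to 0.84 for *Abcg1*, from -0.33 to 0.15 for *Nr1h2*, from -0.50 to 0.048 for *Nr1h3*, from -0.31 to 0.23 for *Lrp1* and from -0.21 to 0.058 for *Pltp*. Between the CRX groups they ran from -0.17 to 0.25 for *Abca1*, from -0.71 to 0.055 for *Nr1h2*, from -0.033 to 0.69 for *Lrp1* and from -0.15 to 0.26 for *Pltp*. *Abcg1* and *Nr1h3*, under the level minimum, had 79 to 1259 and 70 to 161 counts per library.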
